A study of Homo sapiens with 12 samples.

Results

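The genes described here are 32 members of the route by which a cell takes up glucose, breaks it down to pyruvate and exports lactate. These members were chosen with earlier results of these data known. The set was drawn up by function: 3 glucose transporters (SLC2A1, SLC2A3, SLC2A12), the 17 genes of the core steps from hexokinase to lactate dehydrogenase (HK1, HK2, GPI, PFKL, PFKM, PFKP, ALDOA, ALDOC, TPI1, GAPDH, PGK1, PGAM1, ENO1, ENO2, PKM, LDHA, LDHB), the lactate transporters SLC16A1 and SLC16A3 with their partner BSG, 8 regulators (PFKFB2, PFKFB3, PFKFB4, PDK1, PDK2, PDK3, PDP1, HIF1A) and PGM1 at the branch to glycogen. All 32 symbols were found among the 60649 genes of the count table, and all 32 were among the 21114 genes with enough reads to be tested. RNA sequencing was run on 12 libraries of 2 established uterine leiomyosarcoma (uLMS) cell lines, SK-UT-1B, from a primary tumor and of epithelial-like morphology, and SK-LMS-1, from a vulvar metastasis. Both lines are labelled wild type, and all cells were grown in medium with fetal bovine serum and exposed for 72 hours to a treatment at its own 30% inhibitory concentration or to the same volume of the solvent DMSO. In the combination every drug was at a lower dose than when given alone, so MK-0752 alone and the combination also differ in the dose of MK-0752, and dose and added drugs cannot be told apart between them. Doses were set for each line, so the lines after the combination also differ in dose. MK-0752 inhibits gamma secretase, the protease that releases the active part of Notch receptors. Gemcitabine, a nucleoside analog, stops DNA synthesis, and docetaxel binds microtubules. There were 6 groups of 2 libraries: SK-LMS-1 after DMSO numbered 2-1 and 2-3 (set 2), SK-LMS-1 after DMSO numbered 4-1 and 4-2 (set 4), SK-LMS-1 after MK-0752 alone (2-2 and 2-3), SK-LMS-1 after a lower-dose combination of all 3 drugs (4-1 and 4-2), SK-UT-1B after DMSO (4-1 and 4-2) and SK-UT-1B after these 3 drugs together (3-1 and 3-3). SK-UT-1B after MK-0752 alone was not analysed here. Each line is a single cell line, and the labels do not say whether 2 libraries of a group came from separate cultures, so p-values measure the spread between libraries, which may be technical.

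Glucose enters cells through facilitative transporters and is trapped by hexokinase. Phosphofructokinase sets the pace of the upper steps, and the lower steps, from GAPDH to pyruvate kinase, recover ATP. Lactate dehydrogenase converts pyruvate to lactate, which leaves the cell through monocarboxylate transporters. The pyruvate dehydrogenase kinases inhibit pyruvate dehydrogenase, the enzyme that uses pyruvate inside the mitochondria. Many tumors run this route fast even with oxygen present, and the transcription factor HIF-1 and the MYC protein raise many of its genes.

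Total counts lay between 25250057 and 40709885 per library. Values are given as CPM (counts per 1e+06 counts) after scaling library sizes by the trimmed mean of M values, and library order is kept in every list: 2-1, 2-3, 4-1, and 4-2 for SK-LMS-1 DMSO and the order of the groups above for the rest. Intervals are at the 95% level. In each library 17.4% to 34.7% of genes that the other libraries of that line put between 5 and 500 counts were at 0, but among the members only SLC2A12 had a library at 0. Among 9 smooth muscle markers the summed level was 538 to 621 CPM in SK-LMS-1 and 85.0 to 124 CPM in SK-UT-1B. DES was at 0 in all SK-LMS-1 libraries and MYOCD at 0 in all SK-UT-1B libraries. The 5 epithelial markers summed to 163 to 264 CPM in SK-LMS-1 and to 0.292 to 1.14 CPM in SK-UT-1B, where EPCAM and KRT8 were at 0. In SK-LMS-1, CDH1 was at 0 in all libraries, and with DMSO EPCAM had a mean of 0.188 CPM and KRT8 of 103 CPM. Leukocyte markers reached at most 2.47 CPM and endothelial markers at most 9.4 CPM. One library, SK-UT-1B combination 3-1, stood apart for the core genes.

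Promoter sequences were read from RefSeq (GRCh38.p14), as 300 bases from 250 before to 50 after a gene's start, and were matched for 28 of the 32 genes, with 60 promoters. PDP1, PFKFB2, SLC16A1, and SLC2A3 were not matched. The short motif ACGTG, the letters of the core of a hypoxia response element, was searched on both strands. It was present in 22 of the 60 promoters (36.7%), against 21.4% of all 35116 promoters. The members have more promoters per gene than the rest (60 over 28 genes, against 35116 over 27305), so the promoter is the unit compared here. CACGTG, the E-box, which contains ACGTG on both strands and so counts as 2 matches of it, was present in 8 of the 60 (13.3%) against 7.26% of all promoters. A letter match is a description of the window only. The 4 promoters with 3 or more matches are printed here 5′ to 3′ on the gene's strand, since they belong to LDHA, HK2, ALDOC, and PGK1, an enzyme each of the end, start and middle of the pathway. Capitals mark ACGTG on either strand, with the whole run where matches overlap.
LDHA, chr11:18394313-18394612, plus strand, 5 matches: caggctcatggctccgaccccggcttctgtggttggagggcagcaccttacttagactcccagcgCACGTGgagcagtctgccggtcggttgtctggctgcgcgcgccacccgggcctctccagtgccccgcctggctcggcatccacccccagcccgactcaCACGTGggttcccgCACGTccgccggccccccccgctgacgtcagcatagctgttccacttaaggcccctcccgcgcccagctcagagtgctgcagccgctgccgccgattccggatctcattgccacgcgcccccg
HK2, chr2:74834920-74835219, plus strand, 4 matches: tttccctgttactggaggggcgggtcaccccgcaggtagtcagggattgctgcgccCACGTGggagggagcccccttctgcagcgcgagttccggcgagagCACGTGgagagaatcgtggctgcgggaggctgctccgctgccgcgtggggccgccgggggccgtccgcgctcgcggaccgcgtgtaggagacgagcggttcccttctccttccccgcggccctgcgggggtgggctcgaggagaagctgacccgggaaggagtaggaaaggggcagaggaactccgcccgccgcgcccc
ALDOC, chr17:28576846-28577145, minus strand, 3 matches: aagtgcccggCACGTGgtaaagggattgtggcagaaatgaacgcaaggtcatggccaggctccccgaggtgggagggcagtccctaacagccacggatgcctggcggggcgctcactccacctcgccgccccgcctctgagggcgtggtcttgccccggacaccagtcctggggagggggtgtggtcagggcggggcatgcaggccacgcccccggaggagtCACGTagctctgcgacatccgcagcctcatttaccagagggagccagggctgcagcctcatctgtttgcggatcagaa
PGK1, chrX:78103998-78104297, plus strand, 3 matches: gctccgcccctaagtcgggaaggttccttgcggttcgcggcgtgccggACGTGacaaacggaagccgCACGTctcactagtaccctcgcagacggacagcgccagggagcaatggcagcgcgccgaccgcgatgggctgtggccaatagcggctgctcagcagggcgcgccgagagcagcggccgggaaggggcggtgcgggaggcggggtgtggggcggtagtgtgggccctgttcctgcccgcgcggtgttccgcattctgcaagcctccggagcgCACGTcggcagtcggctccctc
The expression of these 4 genes took different courses in the comparisons: ALDOC and HK2 differed between the lines in opposite directions, PGK1 passed the test only after the combination, and LDHA in neither.

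Levels between genes were compared as TPM, a per-length measure scaled to one total in every library, with length as the union of each gene's exons. GAPDH, which makes NADH in the first of the lower steps, was the highest member in both lines after DMSO, at 7754 ± 658 TPM (SD, n = 4) in SK-LMS-1 and 5305 ± 548 TPM (SD, n = 2) in SK-UT-1B. After GAPDH the order in SK-LMS-1 was ENO1 (1140 ± 131 TPM), PKM (994 ± 112), LDHA (692 ± 27.9), BSG (614 ± 90.4), and HIF1A (546 ± 75.8 TPM). Of these, ENO1 and PKM, LDHA and BSG, and BSG and HIF1A had overlapping ranges of mean ± SD. The order in SK-UT-1B was PKM (845 ± 51.1 TPM), TPI1 (738 ± 105), ENO1 (699.9 ± 33.2), and LDHA (617 ± 88.8), and each neighbor in that order overlapped the next within the SDs of 2 libraries. The order depends on the length used. With the canonical transcript's length, PKM (2181 ± 242 TPM) came before ENO1 (1970 ± 225) in SK-LMS-1, still overlapping, and in SK-UT-1B TPI1 (939 ± 146) came after ENO1 (1304 ± 79.4) and LDHA (1054 ± 138), while GAPDH stayed first in both lines. By exon union the lowest were PFKFB2 in SK-LMS-1, at 5.06 ± 0.334 TPM, and SLC2A12 in SK-UT-1B, at 0.285 ± 0.403 TPM.

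**Figure D1:**
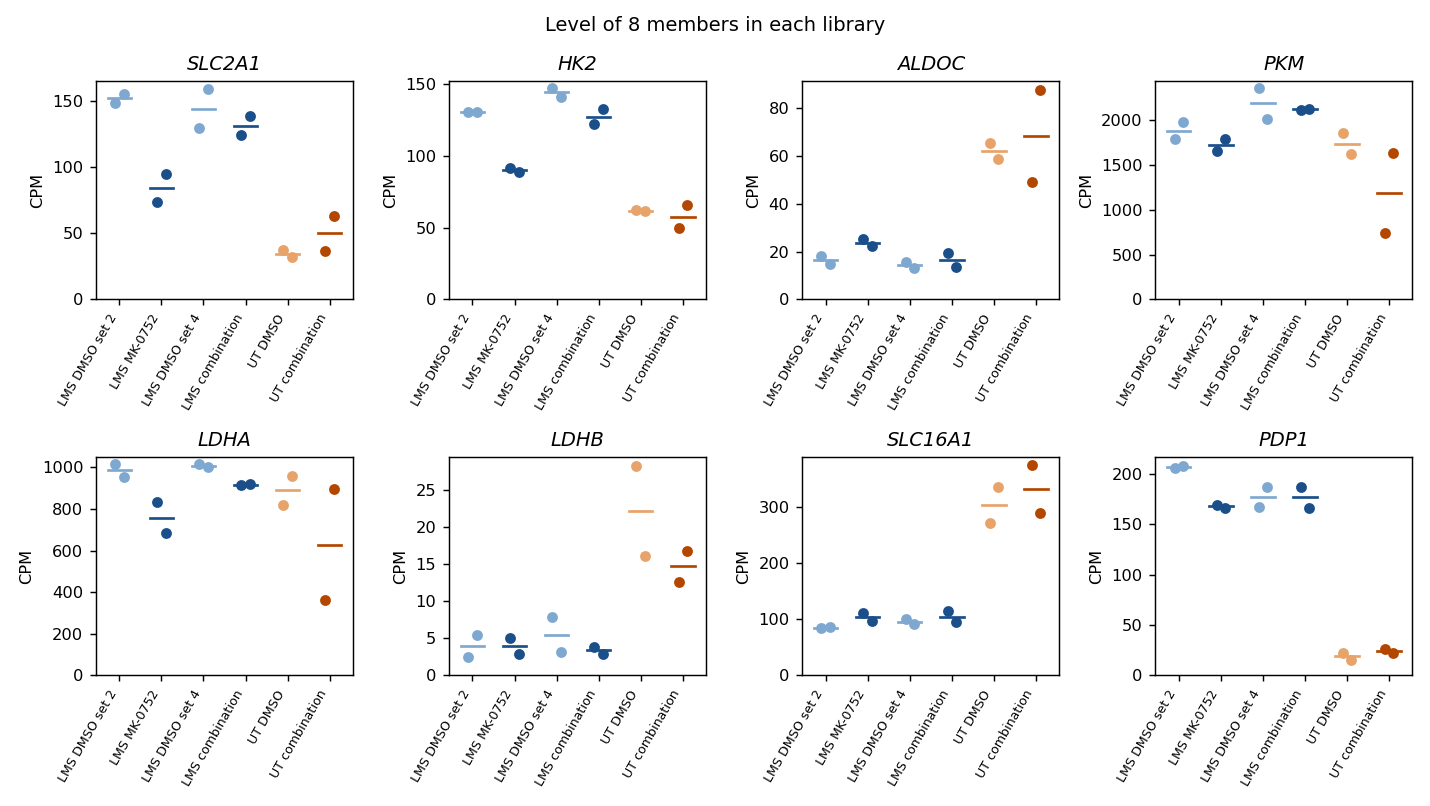
Each of 8 panels shows 1 member on a linear axis from 0, in CPM, with 1 point per library (LMS for SK-LMS-1, UT for SK-UT-1B), by group, and a line at the group's mean. The SLC2A1, HK2 and PDP1 points of all 8 SK-LMS-1 libraries sit above those of all 4 SK-UT-1B libraries.

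The first question was how the lines differ at these genes. After DMSO, 22 of the 32 members differed by edgeR's quasi-likelihood test at an adjusted p under 0.05, beside 41.0% of all genes tested. Of these, 12 were higher in SK-LMS-1, where 21.5% of all genes were, and 10 were lower, where 19.5% were. A log2FC of at least 1 in size as well was reached by 15 members, beside 31.1% of all genes. The median log2FC (SK-LMS-1 over SK-UT-1B) was 0.19 over the members and 0.00 over all genes. The 17 core genes held 5 that were higher in SK-LMS-1 and 7 that were lower, the 6 transport genes 4 and 1, and the 8 regulators 3 and 2. After the combination 18 members differed (10 higher, 8 lower, 11 past the log2FC of 1), beside 32.9% of all genes (19.3% higher, 13.6% lower and 25.4% past 1), and the median was 0.33 against 0.02. The shares over all genes include genes with fewer reads than most members. In the fit of 13522 genes with a mean of at least 50 counts, larger shares passed: 8104 genes after DMSO and 6948 after the combination. How far read number accounts for the members' counts was not tested. The 2 comparisons use different libraries of each line. They shared 16 members, all in 1 direction in both, which is 72.7% of the first list and 88.9% of the second. Over all genes 6288 were called in both, 6287 of them in 1 direction, which is 72.7% of 8651 and 90.6% of 6939, so the members' overlap was near that of all genes. HK1, LDHA, PDK1, PFKFB4, PFKL, PGM1, PKM, and SLC16A3 passed in neither.

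**Figure D2:**
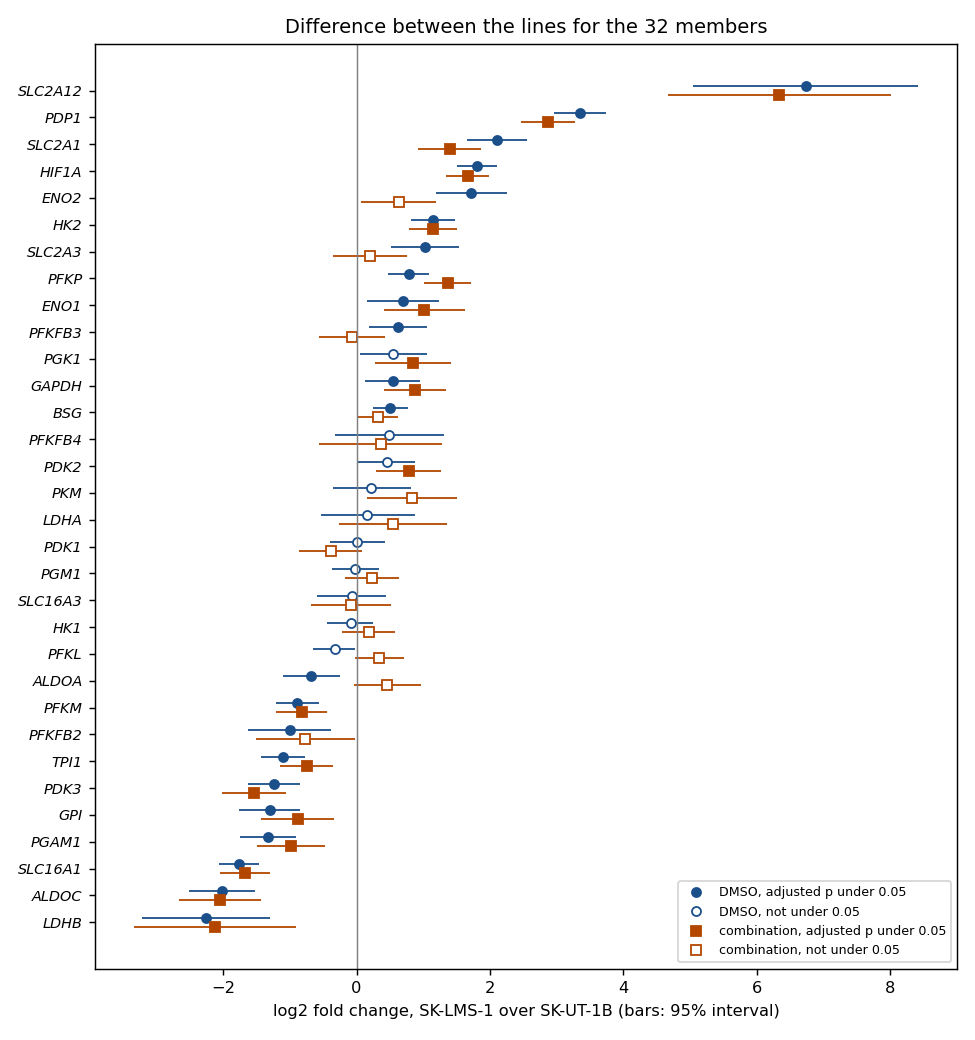
Points give the log2FC of each member, SK-LMS-1 over SK-UT-1B, after DMSO and after the combination, with bars for the 95% interval of edgeR's fit and filled points where the adjusted p was under 0.05. SLC2A12 and PDP1 stand farthest to the SK-LMS-1 side, at 6.73 and 3.35 after DMSO, and LDHB farthest to the SK-UT-1B side, at -2.26.

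Glucose entry held the largest difference. SLC2A1 (GLUT1, chr1:42925353-42958893), the transporter of basal uptake in most cells, was at 149, 155, 129, and 159 CPM with DMSO, 73.8 and 94.7 with MK-0752, and 124 and 139 with the combination (SK-LMS-1), and 37.04 and 31.8 with DMSO and 36.5 and 63.4 with the combination (SK-UT-1B). Every SK-LMS-1 library was above every SK-UT-1B library, including the lowest, MK-0752 2-2. Its mean after DMSO was 148 ± 13.1 CPM (SD, n = 4) in SK-LMS-1 and 34.4 ± 3.72 CPM (SD, n = 2) in SK-UT-1B. The log2FC was 2.11 ± 0.21 (SE, adjusted p = 1.09e-07) after DMSO and 1.40 ± 0.23 (SE, adjusted p = 5.65e-05) after the combination. SLC2A3 (GLUT3), a high-affinity transporter, was at 53.4, 47.02, 57.5, and 58.4 CPM with DMSO, 69.1 and 44.4 with MK-0752, and 56.4 and 56.1 with the combination (SK-LMS-1), and 25.3 and 27.5 with DMSO and 63.7 and 34.1 with the combination (SK-UT-1B). The 4 DMSO libraries of SK-LMS-1 lay above those of SK-UT-1B, but library 3-1 lay within the SK-LMS-1 range. For SLC2A3 the log2FC was 1.03 ± 0.24 (SE, adjusted p = 0.0018) after DMSO and 0.20 ± 0.27 (SE, adjusted p = 0.62) after the combination, where it did not pass. SLC2A12 (GLUT12), an insulin-responsive transporter, was at 43.2, 51.4, 34.6, and 44.002 CPM with DMSO, 71.1 and 61.7 with MK-0752, and 66.4 and 45.5 with the combination (SK-LMS-1), and 0 and 0.743 with DMSO and 0.765 and 0.603 with the combination (SK-UT-1B). It was low in SK-UT-1B, with 1 DMSO library at 0, and far higher in all 8 SK-LMS-1 libraries. The log2FC was 6.73 ± 0.75 (SE, adjusted p = 6.02e-05) after DMSO and 6.34 ± 0.74 (SE, adjusted p = 1.14e-04) after the combination. With 1 library left out the value after DMSO ran from 5.81 (without SK-UT-1B DMSO 4-1) to 13.42 (without 4-2, against a lone library at 0), so its size is poorly fixed. A large part of the gene (2852 of its 5572 exonic bases) lies over TBPL1 on the other strand.

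At the first phosphorylation HK2 was the isoform that differed. HK2, the hexokinase that tumors often raise and that binds mitochondria, was at 131, 130.4, 147, and 141 CPM with DMSO, 91.6 and 88.7 with MK-0752, and 122 and 132 with the combination (SK-LMS-1), and 62.002 and 61.8 with DMSO and 49.6 and 65.6 with the combination (SK-UT-1B). It was higher in every SK-LMS-1 library than in every SK-UT-1B library, by 1.15 ± 0.16 (SE, adjusted p = 5.84e-06) after DMSO and 1.14 ± 0.17 (SE, adjusted p = 2.88e-05) after the combination on the log2 scale. HK1, the hexokinase found in most tissues, was at 132, 154, 189.8, and 140.1 CPM with DMSO, 145 and 149 with MK-0752, and 148 and 137 with the combination (SK-LMS-1), and 141 and 187 with DMSO and 108 and 145 with the combination (SK-UT-1B). Its values overlapped between the lines, and its log2FC after DMSO was -0.09 ± 0.17 (SE, adjusted p = 0.711), with an interval from -0.44 to 0.25. GPI, which turns glucose 6-phosphate into fructose 6-phosphate, was at 295, 313, 300.3, and 308 CPM with DMSO, 243 and 285 with MK-0752, and 311 and 327 with the combination (SK-LMS-1), and 787 and 715 with DMSO and 382 and 794 with the combination (SK-UT-1B). It was higher in every SK-UT-1B library than in any of SK-LMS-1, with a log2FC of -1.30 ± 0.21 (SE, adjusted p = 2.16e-04) after DMSO. After the combination it was -0.88 ± 0.25 (SE, adjusted p = 0.0154), and -1.34 without library 3-1.

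Of the 3 phosphofructokinases, which catalyze the committed step, PFKP (the platelet form) was higher in SK-LMS-1. It was at 159.8, 185, 206, and 205 CPM with DMSO, 163 and 179 with MK-0752, and 206 and 223 with the combination (SK-LMS-1), and 107 and 112 with DMSO and 71.5 and 95.01 with the combination (SK-UT-1B), with every SK-LMS-1 library above every SK-UT-1B library. Its log2FC was 0.78 ± 0.15 (SE, adjusted p = 2.18e-04) after DMSO and 1.37 ± 0.17 (SE, adjusted p = 2.03e-06) after the combination. PFKM (the muscle form) ran from 49.5 to 62.04 (median 57.7) CPM in SK-LMS-1 and from 97.5 to 113 (median 102) CPM in SK-UT-1B, so its groups did not overlap. It was lower in SK-LMS-1, with a log2FC of -0.89 ± 0.15 (SE, adjusted p = 8.40e-05) after DMSO. PFKL (the liver form) ran from 98.1 to 137 (median 113) CPM and from 83.2 to 147 (median 122) CPM, which overlap, and its log2FC was -0.33 ± 0.15 (SE, adjusted p = 0.0837).

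ALDOA, the aldolase of muscle and most tissues, was at 36.8, 38.1, 24.9, and 33.6 CPM with DMSO, 36.2 and 30.7 with MK-0752, and 39.8 and 49.4 with the combination (SK-LMS-1), and 51.2 and 54.6 with DMSO and 29.6 and 35.2 with the combination (SK-UT-1B). The 4 SK-LMS-1 DMSO libraries lay below both SK-UT-1B DMSO libraries, and after the combination the order was the reverse. Its log2FC was -0.68 ± 0.20 (SE, adjusted p = 0.0105) after DMSO and 0.46 ± 0.24 (SE, adjusted p = 0.162) after the combination. ALDOA shares 1639 of its 3829 exonic bases with a readthrough transcript on the same strand, which held 5 to 139 counts, and reads there may have been left out of the count. The canonical ALDOA transcript has only 1640 bases, and how many of them are shared was not determined. The level of ALDOA and its differences may thus rest on a small part of its reads. ALDOC, the aldolase known from brain, was at 17.995, 15.03, 15.7, and 12.98 CPM with DMSO, 25.1 and 22.2 with MK-0752, and 19.6 and 13.5 with the combination (SK-LMS-1), and 65.6 and 58.5 with DMSO and 49.2 and 87.6 with the combination (SK-UT-1B). It was higher in every SK-UT-1B library, and its log2FC was -2.01 ± 0.24 (SE, adjusted p = 7.96e-07) after DMSO and -2.05 ± 0.30 (SE, adjusted p = 1.42e-05) after the combination. TPI1, which interconverts the 2 triose phosphates, ran from 184 to 249.9 (median 227) CPM in SK-LMS-1 and 319.6 to 539.5 (median 459.9) CPM in SK-UT-1B, without overlap. It was lower in SK-LMS-1, by -1.10 ± 0.16 (SE, adjusted p = 9.75e-06) after DMSO.

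GAPDH was at 4513, 4911, 3950, and 4409 CPM with DMSO, 3163 and 4148 with MK-0752, and 4811 and 5108 with the combination (SK-LMS-1), and 3355 and 2757 with DMSO and 2004 and 3390 with the combination (SK-UT-1B). The lowest SK-LMS-1 library (MK-0752 2-2) was below the highest of SK-UT-1B, but the DMSO libraries of the lines did not overlap. Its log2FC was 0.54 ± 0.19 (SE, adjusted p = 0.0366) after DMSO and 0.88 ± 0.21 (SE, adjusted p = 0.00635) after the combination, where it was 0.52 without library 3-1 and 1.31 without 3-3, called in both. PGK1, which makes the first ATP of the lower steps, was at 467, 493, 592, and 500.1 CPM with DMSO, 378 and 341 with MK-0752, and 509 and 466 with the combination (SK-LMS-1), and 352 and 347 with DMSO and 173 and 368 with the combination (SK-UT-1B). It was higher in SK-LMS-1 after the combination at 0.85 ± 0.26 (SE, adjusted p = 0.0247), and after DMSO its log2FC was 0.55 ± 0.23 (SE, adjusted p = 0.0761). PGAM1, the phosphoglycerate mutase of most tissues, was at 51.95, 58.8, 44.9, and 59.3 CPM with DMSO, 38.7 and 55.02 with MK-0752, and 61.3 and 55.2 with the combination (SK-LMS-1), and 149 and 121 with DMSO and 85.1 and 144 with the combination (SK-UT-1B). Each SK-UT-1B library was above each SK-LMS-1 library, and the log2FC was -1.33 ± 0.20 (SE, adjusted p = 2.03e-05) after DMSO. The 13 pseudogenes of PGAM1 together reached up to 7.39% of its count. ENO1, the enolase of most tissues, was at 1377, 1325, 1661, and 1324 CPM with DMSO, 912 and 915 with MK-0752, and 1344 and 1353 with the combination (SK-LMS-1), and 928 and 826 with DMSO and 432 and 904 with the combination (SK-UT-1B). The DMSO libraries of the lines did not overlap, and ENO1 was higher in SK-LMS-1 by 0.70 ± 0.24 (SE, adjusted p = 0.0416) after DMSO and 1.01 ± 0.27 (SE, adjusted p = 0.0156) after the combination. The second value was 0.55 without library 3-1 and 1.64 without 3-3, called in both, and it lost its call with only the compared libraries in the fit (1.01, adjusted p = 0.07). ENO2, the neuron-specific enolase, was at 25.7, 35.3, 53.4, and 38.7 CPM with DMSO, 30.2 and 31.8 with MK-0752, and 31.1 and 32.6 with the combination (SK-LMS-1), and 11.5 and 11.3 with DMSO and 22.5 and 18.7 with the combination (SK-UT-1B). The 4 SK-LMS-1 DMSO libraries were at more than the 2 of SK-UT-1B, and the log2FC was 1.72 ± 0.25 (SE, adjusted p = 1.43e-05) after DMSO and 0.63 ± 0.27 (SE, adjusted p = 0.086) after the combination.

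PKM, pyruvate kinase, which makes pyruvate and ATP, was at 1790, 1983, 2360, and 2021 CPM with DMSO, 1665 and 1793 with MK-0752, and 2117 and 2132 with the combination (SK-LMS-1), and 1858 and 1623 with DMSO and 748 and 1639 with the combination (SK-UT-1B). The DMSO values of the 2 lines overlapped, and the log2FC was 0.22 ± 0.26 (SE, adjusted p = 0.539), with an interval from -0.36 to 0.81. After the combination it was 0.83 ± 0.30 (SE, adjusted p = 0.0619), just short of the threshold, and PKM passed in 8 of 10 alternatives there. LDHA, the lactate dehydrogenase subunit that favors lactate, was at 1019, 955, 1015, and 1003 CPM with DMSO, 832 and 683 with MK-0752, and 913 and 920.0 with the combination (SK-LMS-1), and 822 and 959 with DMSO and 360.1 and 898 with the combination (SK-UT-1B). Apart from 3-1, SK-UT-1B lay within the SK-LMS-1 range, and the log2FC after DMSO was 0.16 ± 0.30 (SE, adjusted p = 0.735), with an interval from -0.54 to 0.87. LDHB, the subunit that favors pyruvate, was at 2.46, 5.43, 7.79, and 3.11 CPM with DMSO, 5.08 and 2.83 with MK-0752, and 3.85 and 2.91 with the combination (SK-LMS-1), and 28.2 and 16.1 with DMSO and 12.5 and 16.8 with the combination (SK-UT-1B). All 8 SK-LMS-1 libraries were below all 4 SK-UT-1B libraries, and the log2FC was -2.26 ± 0.46 (SE, adjusted p = 4.74e-04) after DMSO and -2.12 ± 0.58 (SE, adjusted p = 0.00715) after the combination. LDHB shares 997 of its 2983 exonic bases with a readthrough transcript that was at 0 counts. Reads in shared bases may have been left out of both counts, so the 0 does not show that LDHB lost none. The canonical LDHB transcript has 1303 bases, and how many of them are shared was not determined.

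Of the lactate transporters, SLC16A1 passed the test. SLC16A1 (MCT1), which moves lactate in either direction, was at 83.4, 85.7, 99.5, and 90.5 CPM with DMSO, 112 and 97.2 with MK-0752, and 114 and 94.96 with the combination (SK-LMS-1), and 272 and 335 with DMSO and 376 and 291 with the combination (SK-UT-1B). It was higher in every SK-UT-1B library, and the log2FC was -1.76 ± 0.14 (SE, adjusted p = 4.31e-09) after DMSO and -1.67 ± 0.18 (SE, adjusted p = 2.47e-07) after the combination. SLC16A3 (MCT4), the exporter of strongly glycolytic cells, was at 21.1, 26.6, 27.5, and 30.8 CPM with DMSO, 21.9 and 28.5 with MK-0752, and 24.4 and 31.6 with the combination (SK-LMS-1), and 29.5 and 25.97 with DMSO and 24.3 and 35.3 with the combination (SK-UT-1B). Its values overlapped between the lines, with a log2FC of -0.07 ± 0.25 (SE, adjusted p = 0.886) and an interval from -0.59 to 0.44. BSG (basigin), the chaperone that brings both transporters to the membrane, was at 559.7, 625, 788, and 625 CPM with DMSO, 545 and 589 with MK-0752, and 663 and 640.0 with the combination (SK-LMS-1), and 473 and 439 with DMSO and 489 and 555 with the combination (SK-UT-1B). Its DMSO libraries did not overlap between lines, and the log2FC was 0.50 ± 0.13 (SE, adjusted p = 0.00295) after DMSO and 0.32 ± 0.14 (SE, adjusted p = 0.101) after the combination.

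PDP1 and HIF1A had 2 of the 4 largest positive values. PDP1, the phosphatase that reactivates pyruvate dehydrogenase, was at 206, 208, 168, and 187 CPM with DMSO, 169.8 and 166 with MK-0752, and 188 and 166 with the combination (SK-LMS-1), and 22.2 and 15.5 with DMSO and 26.2 and 22.3 with the combination (SK-UT-1B). Every SK-LMS-1 library was above every SK-UT-1B library, and the log2FC was 3.35 ± 0.19 (SE, adjusted p = 1.25e-11) after DMSO and 2.87 ± 0.19 (SE, adjusted p = 2.99e-10) after the combination. HIF1A, the oxygen-regulated subunit of HIF-1, was at 780.2, 694, 569, and 646 CPM with DMSO, 724 and 613 with MK-0752, and 691 and 602 with the combination (SK-LMS-1), and 173 and 208 with DMSO and 189.9 and 218 with the combination (SK-UT-1B). It too was higher in all 8 SK-LMS-1 libraries, by 1.81 ± 0.14 (SE, adjusted p = 2.66e-09) after DMSO and 1.67 ± 0.15 (SE, adjusted p = 3.96e-08) after the combination. PDK3, a pyruvate dehydrogenase kinase, was at 47.5, 39.6, 35.2, and 49.7 CPM with DMSO, 41.8 and 35.5 with MK-0752, and 37.6 and 36.9 with the combination (SK-LMS-1), and 111 and 90.7 with DMSO and 91.6 and 123 with the combination (SK-UT-1B). Each SK-UT-1B library was above each SK-LMS-1 library, and the log2FC was -1.23 ± 0.19 (SE, adjusted p = 1.84e-05) after DMSO and -1.53 ± 0.23 (SE, adjusted p = 2.07e-05) after the combination. PDK1, the kinase that HIF-1 raises, was at 36.4, 44.4, 30.5, and 30.5 CPM with DMSO, 29.8 and 33.3 with MK-0752, and 51.2 and 40.3 with the combination (SK-LMS-1), and 35.5 and 34.3 with DMSO and 59.9 and 59.8 with the combination (SK-UT-1B). Its DMSO values overlapped between lines, and the log2FC was 0.01 ± 0.20 (SE, adjusted p = 1). PDK2 ran from 64.99 to 106 (median 77.5) CPM in SK-LMS-1 and from 41.6 to 63.1 (median 50.4) CPM in SK-UT-1B, and was called only after the combination at 0.78 ± 0.23 (SE, adjusted p = 0.0128), and had 0.45 ± 0.20 (SE, adjusted p = 0.0856) after DMSO. Of its 5471 exonic bases, 2113 lie over SAMD14 on the other strand.

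The bifunctional enzymes that set fructose 2,6-bisphosphate, the activator of phosphofructokinase, are 3 of the regulators. PFKFB3, the form with the strongest kinase activity, was at 25.2, 31.1, 40.6, and 44.8 CPM with DMSO, 30.9 and 28.7 with MK-0752, and 34.2 and 35.99 with the combination (SK-LMS-1), and 21.8 and 23.3 with DMSO and 37.7 and 36.02 with the combination (SK-UT-1B). The SK-LMS-1 DMSO libraries were above those of SK-UT-1B, and the log2FC was 0.62 ± 0.21 (SE, adjusted p = 0.0223) after DMSO and -0.07 ± 0.24 (SE, adjusted p = 0.873) after the combination. PFKFB4 was at 7.25, 10.54, 14.6, and 13.3 CPM with DMSO, 13.4 and 14.4 with MK-0752, and 10.6 and 15.6 with the combination (SK-LMS-1), and 7.96 and 7.88 with DMSO and 6.45 and 13.98 with the combination (SK-UT-1B), with overlap between the lines, and its log2FC was 0.49 ± 0.39 (SE, adjusted p = 0.334). PFKFB2 ran from 11.5 to 21.4 (median 13.1) CPM in SK-LMS-1 and from 19.6 to 33.2 (median 24.7) CPM in SK-UT-1B and was lower in SK-LMS-1 in DMSO, by -1.0 ± 0.30 (SE, adjusted p = 0.0104). PGM1, which links glucose 6-phosphate with glycogen, ran from 76.05 to 102 CPM and from 62.7 to 97.02 CPM, and its log2FC was -0.02 ± 0.17 (SE, adjusted p = 1).

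Some of these calls turned on single libraries or on the processing. After DMSO, PFKFB3 lost its call with any 1 of the 6 libraries left out (adjusted p from 0.0657 to 0.259) and without the filter on low counts (0.59, adjusted p = 0.0607), and ALDOA (-0.63), BSG (0.45), and PFKFB2 (-0.76) lost it without SK-UT-1B DMSO 4-2 (adjusted p = 0.1, 0.051 and 0.166). PGK1 passed with any 1 of them left out, at 0.45 to 0.56. It also passed by DESeq2, without the filter on low counts and with only the compared libraries. PDK2 passed without SK-UT-1B DMSO 4-1, at 0.68. The ENO1 and GAPDH calls were lost with DESeq2's size factors, at 0.67 and 0.51 (adjusted p = 0.0547 and 0.0515). With the replicate number as a block ENO1 lost its call too (0.61, adjusted p = 0.109) and PFKL gained one (-0.40, adjusted p = 0.0446). PFKL also passed with a filter at a mean of 50 counts (-0.37, adjusted p = 0.0455). After the combination, GPI (-0.26), PGAM1 (-0.55), and TPI1 (-0.39) lost the call without library 3-3, PGK1 (0.38) without 3-1, PDK2 without 3-1 (0.55) or SK-LMS-1 combination 4-1 (0.72), and LDHB (-1.94) without SK-LMS-1 combination 4-2. With only the compared libraries in the fit GPI (-0.89, adjusted p = 0.0959), PGK1 (0.84, adjusted p = 0.118) and TPI1 (-0.76, adjusted p = 0.052) lost it too. PKM passed with any 1 of the 4 libraries left out, from 0.35 without 3-1 to 1.51 without 3-3, with DESeq2 (0.79, adjusted p = 0.0328), with either other filter (0.80 and 0.79, adjusted p = 2.14e-05 and 0.0336) and with the replicate block (1.14, adjusted p = 0.0108), but not with DESeq2's size factors (adjusted p = 0.0797) or only the compared libraries (adjusted p = 0.13). LDHA passed without 3-3, at 1.35, and without SK-LMS-1 combination 4-1, at 0.53. PFKL (0.56), BSG (0.41) and PFKFB2 (-1.10) passed without 3-3 too. The count of members called was 17 without 3-1, beside 28.2% of all genes, and 20 without 3-3, beside 27.3%. Of these 9 and 14 were higher in SK-LMS-1, beside 16.1% of all genes in each fit.

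Share within a family asks which isoform a line uses, and it does not depend on how many reads a library has in all. Levels per length over all 8 SK-LMS-1 and 4 SK-UT-1B libraries were used, and 12 shares were tested by exact permutation over the libraries, two-sided, with 495 splits and Benjamini-Hochberg adjustment. The libraries of each side share a line and include several treatments, with MK-0752 alone only in SK-LMS-1. The test thus compares lines with unlike mixes of treatments, and it does not compare treatments. HK2 made up 48.7% ± 4.91 (SD, n = 8) in SK-LMS-1 and 32.7% ± 3.33 (SD, n = 4) in SK-UT-1B of the 2 hexokinases. PFKP made up 54.4% ± 2.15 (SD, n = 8) in SK-LMS-1 and 30.9% ± 2.09 (SD, n = 4) in SK-UT-1B of the phosphofructokinases, and PFKM 17.5% ± 2.15 (SD, n = 8) in SK-LMS-1 and 36.2% ± 4.66 (SD, n = 4) in SK-UT-1B. The share of ALDOC among the 2 aldolases was 41.9% ± 7.92 (SD, n = 8) in SK-LMS-1 and 68.9% ± 7.52 (SD, n = 4) in SK-UT-1B, with the uncertainty in ALDOA given above. PDK2 had 74.9% ± 4.10 (SD, n = 8) in SK-LMS-1 and 50.5% ± 5.13 (SD, n = 4) in SK-UT-1B of the 3 kinases, and PDK3 12.1% ± 2.33 (SD, n = 8) in SK-LMS-1 and 32.2% ± 1.08 (SD, n = 4) in SK-UT-1B. Of the 2 lactate transporters, SLC16A3 was 15.9% ± 2.59 (SD, n = 8) in SK-LMS-1 and 5.99% ± 1.61 (SD, n = 4) in SK-UT-1B. LDHB was 0.912% ± 0.354 (SD, n = 8) in SK-LMS-1 and 5.00% ± 1.78 (SD, n = 4) in SK-UT-1B of lactate dehydrogenase, with the uncertainty in LDHB given above. The ranges were 0.486% to 1.53% in SK-LMS-1 and from 3.28% to 6.57% in SK-UT-1B. For these 8 shares the lines did not overlap, and each gave an exact p of 0.00202, the smallest that 495 splits allow, and an adjusted p of 0.00303 by permutation. The PFKL share was 28.1% ± 1.47 (SD, n = 8) in SK-LMS-1 and 32.9% ± 3.16 (SD, n = 4) in SK-UT-1B (adjusted p = 0.00539 by exact permutation). That of SLC2A3 among SLC2A1 and SLC2A3 was 29.1% ± 7.41 (SD, n = 8) in SK-LMS-1 and 44.2% ± 12.4 (SD, n = 4) in SK-UT-1B (adjusted p = 0.0194 by exact permutation), and it did not pass without SK-UT-1B DMSO 4-2 (difference -15.2 points, adjusted p = 0.0509) or without library 3-1 (-9.42 points, adjusted p = 0.0727). PDK1 and ENO2 were at adjusted p values of 0.086 and 0.651 in the exact test. With the 6 DMSO libraries alone, 15 splits allow no p below 0.0667. The size of a share depends on the length used. With canonical transcript lengths PDK2 was at 47.7% in SK-LMS-1 and 19.4% in SK-UT-1B, PDK3 at 46.9% and 76.3%, SLC16A3 at 28.4% and 11.8%, HK2 at 34.4% and 21.2%, and ALDOC at 33.6% and 60.9%. The 10 shares that passed kept their direction and passed there too, while the PDK1 difference changed sign, from -4.32 to 1.02 points, and passed with neither length (adjusted p = 0.245 by exact permutation with canonical lengths).

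**Figure D3:**
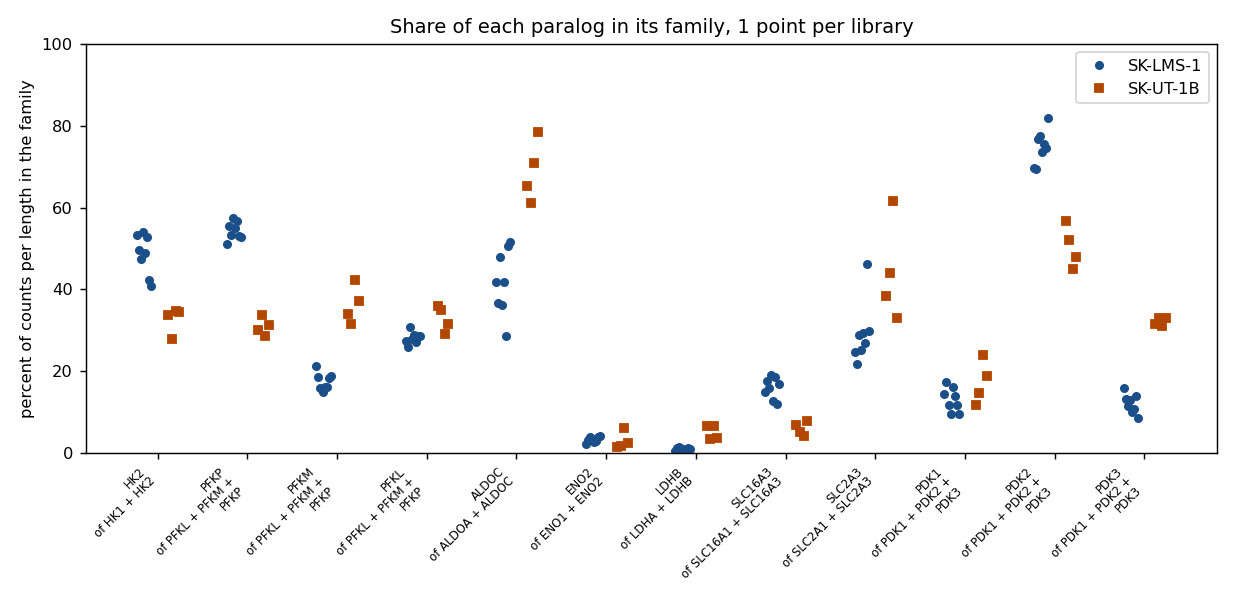
Points give the percentage of each isoform within its family in each library, on a scale from 0 to 100, with the lines in separate colors. PFKP and PDK2 take the larger share in SK-LMS-1, and PFKM, ALDOC and PDK3 in SK-UT-1B.

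The second question was whether the drugs moved these genes. None of the 32 members passed edgeR's test in any of the 3 treatment comparisons, beside 0.365% of all genes for MK-0752 in SK-LMS-1, 0.0237% for the combination in SK-LMS-1 and 0.715% for the combination in SK-UT-1B. Members at an unadjusted p under 0.05 numbered 2, 2, and 8, beside 6.41%, 4.33%, and 10.5% of all genes, and DESeq2 called 0, 0, and 1, beside 1.04%, 0.185%, and 2.78%. The 1 call was PDK1 in SK-UT-1B, with a log2FC of 0.77 and an adjusted p of 0.041 by DESeq2. The median log2FC of the members was -0.08 after MK-0752 (0.00 over all genes), -0.02 after the combination in SK-LMS-1 (0.03), and -0.08 after the combination in SK-UT-1B (0.00). A p that misses the threshold does not show that levels stayed the same, and with 2 libraries a side the intervals are wide. For SLC2A1 after MK-0752 the interval ran from -1.32 to -0.38.

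In SK-LMS-1 after MK-0752, SLC2A1 had the largest negative log2FC, -0.85 ± 0.22 (SE, adjusted p = 0.16). Both MK-0752 libraries (73.8 and 94.7 CPM) were below all 4 DMSO libraries. With only its own 4 libraries in the fit SLC2A1 did pass, at -0.83 (adjusted p = 0.0221 by edgeR), and so it did without the filter on low counts at -0.83 (adjusted p = 0.00484) and with the replicate number as a block at -0.91 (adjusted p = 0.0361). Without MK-0752 2-3 it was called as well, at -1.04 (adjusted p = 0.035). In the other 8 alternatives it did not pass (adjusted p from 0.0657 with DESeq2 to 0.488 without MK-0752 2-2, where it was -0.68), among them all 4 DMSO libraries as one group (-0.81, adjusted p = 0.0739) and DMSO set 4 as control (-0.77, adjusted p = 0.201). ENO1 had -0.56 ± 0.27 (SE, adjusted p = 0.806) and passed with only the compared libraries and without the filter, at -0.55 in each (adjusted p = 0.0162 and 0.0277). Both ENO1 libraries after MK-0752 were below all 4 DMSO libraries. HK2 had -0.53 ± 0.17 (SE, adjusted p = 0.382) and likewise lay below all 4 DMSO libraries. Of the 17 core genes 12 had a log2FC below 0 (median -0.16, against 0.00 over all genes). They took 0.769% and 0.874% of all counts after MK-0752 and 0.971% to 1.06% in the 4 DMSO libraries. Mitochondrially encoded genes took 2.81% and 3.09% of counts after MK-0752 and 2.4% to 2.52% with DMSO, and the part this has in the result was not tested. The largest positive values were PFKFB4 at 0.64, ALDOC at 0.52 and SLC2A12 at 0.49 (adjusted p = 0.806, 0.806 and 0.99). The arrestin-family TXNIP, which lowers SLC2A1 at the membrane, was called higher at 6.10 ± 0.34 (SE, adjusted p = 4.79e-06), and its relative ARRDC4 at 2.71 ± 0.44 (SE, adjusted p = 0.00613).

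After the combination SK-LMS-1 had members from LDHB at -0.68, ENO2 at -0.53 and PFKFB3 at -0.28 to SLC2A12 at 0.51, PDK1 at 0.59 and ALDOA at 0.61. The smallest adjusted p was 0.907. ALDOA and PDK1 were the 2 members at an unadjusted p under 0.05. In both, the combination libraries lay above the 2 DMSO libraries of set 4, but for PDK1 2-3 of set 2 (44.4 CPM) lay between them. Core genes as a group had a median log2FC of -0.03, with 8 above 0 and 9 below.

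SK-UT-1B after the combination held the widest spread. The largest values were SLC2A3 at 0.89, ENO2 at 0.86, PDK1 at 0.78, SLC2A12 at 0.77 and PFKFB3 at 0.71, and the lowest ALDOA at -0.71, LDHB at -0.59 and PKM at -0.54. For SLC2A3, ENO2, PDK1, and PFKFB3 both combination libraries were above both DMSO libraries. SLC2A3 rests largely on 3-1, with a log2FC of 0.34 without it and 1.27 without 3-3. All 6 transport genes had a log2FC above 0 (median 0.37), 15 of the 17 core genes below 0 (median -0.37), and 7 of 8 regulators above 0 (median 0.23). The core genes' count rests on library 3-1. Against the mean of the DMSO libraries, 16 of the 17 core genes were below 0 in 3-1 (median -0.65) and 6 in 3-3 (median 0.05), beside 43.2% and 44.6% of all tested genes. Of the 6 transport genes 5 were above 0 in each of these libraries, with SLC16A3 at -0.19 in 3-1 and SLC16A1 at -0.06 in 3-3 below it, and of the 8 regulators 5 in 3-1 (HIF1A at 0.00) and 7 in 3-3. LDHA was at -1.30 in 3-1 and 0.02 in 3-3, PKM at -1.22 and -0.08, and ENO1 at -1.02 and 0.05. In contrast, PDK1 was at 0.77 in both, PFKFB3 at 0.73 and 0.67, and ENO2 at 0.96 and 0.69. Without 3-3, edgeR called 12 members, beside 7.31% of all genes, with LDHA at -1.31 and PKM at -1.22, and GAPDH at -0.61. Without 3-1, SLC2A1 alone was called, at 0.85 (adjusted p = 0.00627), beside 1.71% of all genes. Without SK-UT-1B DMSO 4-2, PKM (-0.64, adjusted p = 0.0126) and SLC2A12 (1.01e-05), then set against a lone library at 0, were called, beside 2.66% of all genes. In those fits the lone library was taken to vary like the other groups. The core genes took 0.594% of all counts in 3-1 and 1.04% in 3-3, and 1.04% and 0.93% in the DMSO libraries. Mitochondrially encoded genes took 3.6% of counts in 3-1 and 4.67% to 5.81% in the other SK-UT-1B libraries, and the part this has in the result was not tested. The 2 combination libraries differed by a median of 0.646 (log2, absolute) over the core genes, against 0.0865 to 0.242 in the other groups, and by 0.287 against 0.12 to 0.219 over 6395 genes above 1000 counts.

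**Figure D4:**
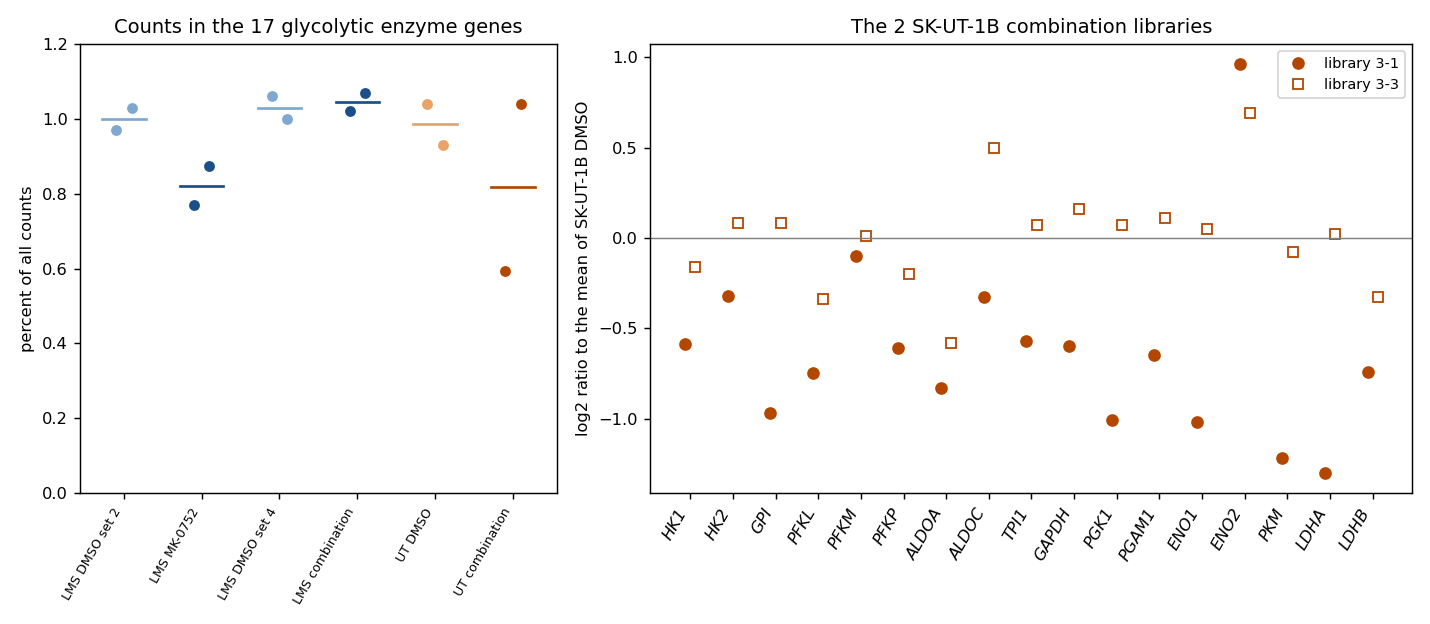
The left panel shows the percentage of all counts taken by the 17 core genes in each of the 12 libraries, from 0, and the right panel the log2 ratio of each core gene in libraries 3-1 and 3-3 to the SK-UT-1B DMSO mean. Library 3-1 of the SK-UT-1B combination sits at 0.594% and the MK-0752 libraries at 0.769% and 0.874%, below the DMSO libraries at 0.93% to 1.06%.

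**Figure D5:**
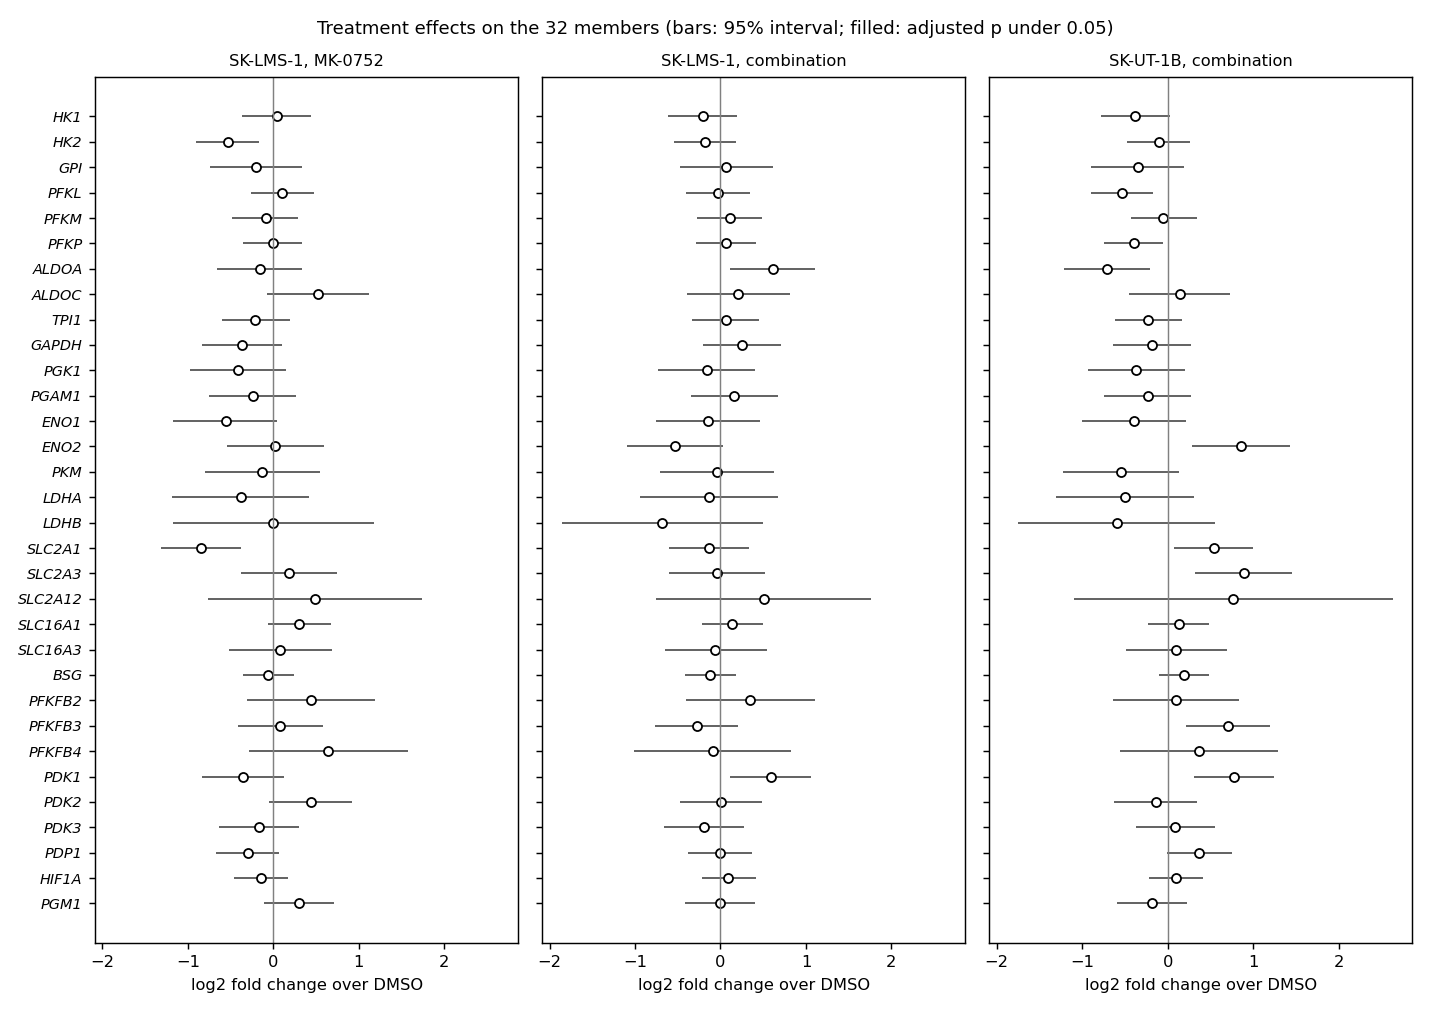
Points give each member's log2FC in the 3 treatment comparisons with bars for the 95% interval of edgeR's fit. No point is filled, since no member had an adjusted p under 0.05. The core genes in SK-UT-1B lie mostly below 0, with ENO2 at 0.86 an exception, and SLC2A1 after MK-0752 in SK-LMS-1 lies at -0.85.

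Whether the treatment effects differ was tested as interactions, and no member passed. For the combination (SK-UT-1B minus SK-LMS-1, 0.232% of all genes called), 5 members were at an unadjusted p under 0.05 (7.67% of all genes) and DESeq2 called 0 (0.758%). With a library left out, 1 member was called without 3-1 (SLC2A1 at 1.02, adjusted p = 0.0227), beside 1.43% of all genes, 9 without 3-3 (4.27%), 2 without SK-LMS-1 DMSO 4-2 (2.49%) and 1 without SK-UT-1B DMSO 4-2 (1.86%). The extremes were ALDOA at -1.31 ± 0.34 (SE, adjusted p = 0.206) and ENO2 at 1.39 ± 0.38 (SE, adjusted p = 0.269). For MK-0752 minus the combination in SK-LMS-1 (0.0379% of all genes), 3 were at an unadjusted p under 0.05 (5.18%) and DESeq2 called 0 (0.242%), with PDK1 at -0.94 and SLC2A1 at -0.72 ± 0.31 (SE, adjusted p = 0.911). This comparison also sets 2 doses of MK-0752 against each other. The 2 SK-LMS-1 DMSO sets differed at no member in edgeR's test, beside 0.0% of all genes. In that comparison 2 members were at an unadjusted p under 0.05 (5.67% of all genes), DESeq2 called 0 (0.152%), and the median was 0.14 (all genes 0.00). Each treatment in SK-LMS-1 was set against the DMSO libraries with the same leading number in their labels. In SK-UT-1B the combination libraries carry the leading number 3 and the DMSO libraries 4, so treatment and whatever that number marks cannot be told apart there, nor in the difference of combination effects between the lines.

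Some lists of genes around the pathway, drawn up for this purpose, are given by their counts, beside 21.5% of all genes higher in SK-LMS-1 and 19.5% lower. Most lists are short, and none was tested as a group. With DMSO, SK-LMS-1 had 13 of 18 HIF targets outside glycolysis higher and 2 lower (median log2FC 1.35, against 0.00 over all genes), with NDRG1, a stress-induced gene, at 4.51 ± 0.20 (SE, adjusted p = 5.67e-13) and VEGFA at 2.52 ± 0.45 (SE, adjusted p = 0.00255) higher. LOX, the collagen cross-linking enzyme, was at least 4540-fold higher against the floor of 3 counts per library. In the same DMSO comparison of the lines, DDIT4, an inhibitor of mTORC1, was lower at -3.03 ± 0.29 (SE, adjusted p = 1.02e-06). Among the treatment effects, LOX was called lower after MK-0752 in SK-LMS-1, at -0.90 ± 0.15 (SE, adjusted p = 0.0106). NDRG1 was called higher after the combination in SK-UT-1B, at 1.78 ± 0.19 (SE, adjusted p = 5.52e-05). Among 27 tested of 35 other paralogs and partners, 3 were higher and 12 lower (median -0.91), with the pyruvate dehydrogenase subunit PDHA1 at -1.68 ± 0.27 (SE, adjusted p = 7.02e-05) and the mitochondrial pyruvate carrier MPC2 at -1.93 ± 0.28 (SE, adjusted p = 1.07e-05). Pyruvate dehydrogenase turns mitochondrial pyruvate into acetyl-CoA. The serine branch had 4 of 5 lower (median -1.29), with PHGDH, its first enzyme, at -1.73 ± 0.15 (SE, adjusted p = 8.91e-09). Of 8 glycogen genes 4 were higher and 1 lower (median 0.44), of 5 hexosamine genes 1 was higher and 3 lower (median -0.47), and of 3 tested of 7 gluconeogenesis genes 1 was higher and 1 lower (median 0.55). Of 8 glucose-sensing genes 2 were higher and 3 lower (median -0.98), with MYC at -1.33 ± 0.14 (SE, adjusted p = 1.02e-07) and TXNIP at -4.41 ± 0.24 (SE, adjusted p = 1.17e-08). Of 7 HIF regulators 2 were higher and 2 lower (median -1.37), with EPAS1, the HIF-2 alpha subunit, at 7.01 ± 0.71 (SE, adjusted p = 1.71e-04).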

How the data were processed

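The deposited table holds raw counts per gene that the authors made with STAR from single-end stranded reads trimmed with Trim Galore and aligned to hg38; per the submitters' processing notes the versions were Trim Galore 0.3.7, STAR 2.7.9a, and DESeq2 1.42.0. Annotation, strand setting and removal of duplicates are not given in the sources used here. The members and gene lists were chosen with earlier results of these data known. One list is not reported here. Gene IDs were matched to GENCODE 44. Of 60649 genes, 21114 passed edgeR's filter for low counts, and edgeR 4.0.16 in R 4.3.3 fitted its quasi-likelihood model with robust dispersion to all 12 libraries after TMM scaling; p-values were Benjamini-Hochberg adjusted over all genes tested, at 0.05. The script was tested on simulated counts with 200 changed genes. Reads with no unique molecular identifiers are not independent molecules, so floors cover counting error only. Named members were, by a set rule, those called after treatment, the 10 largest called line differences and 20 glycolysis genes; the others are given by range. Alternatives were DESeq2, its size factors, 2 filters (none beyond 1 count, or a mean of 50), only the compared libraries, all DMSO libraries as one group, a replicate block and each library left out; added after seeing the data were the other DMSO set and canonical transcript lengths (family shares and the order by TPM). Same-numbered libraries did not deviate together (r = -0.0113 and -0.00585), so the numbers were not taken as pairs. Python 3.11.15 with numpy 2.4.6, pandas 2.3.3, scipy 1.17.1, and matplotlib 3.10.9 was used. Limma 3.58.1 was loaded by edgeR.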

Additional observations from a re-analysis of the deposited data

Results flagged for a closer look

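Of 44 values tested in the 4 SK-LMS-1 DMSO libraries for one that stands apart, 1 was, and chance gives about 1 in 20: ENO1 in library 4-1, at 1660 CPM, where the other 3 lay at 1377, 1325 and 1324 CPM. For NDRG1 the effect of the combination differed between the lines by 2.21 (log2, SE 0.27, adjusted p = 2.65e-04 by edgeR). In SK-LMS-1 the effect of MK-0752 on TXNIP exceeded that of the combination by 4.9 (log2, SE 0.42, adjusted p = 5.45e-04 by edgeR), and the dose of MK-0752 was lower in the combination.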

How the results depend on the processing

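In SK-UT-1B after the combination, 586 of 21114 genes passed with DESeq2, 758 of 30051 with no filter beyond 1 count and 267 of 21114 with the replicate block, against 151 of 21114. Of the members, 1 passed with DESeq2 (PDK1), 2 with no filter (SLC2A3 and PKM) and 1 with the block (SLC2A3, 1.14, adjusted p = 0.0154 by edgeR), against 0. With 1 library left out the count ran from 0 to 12. After MK-0752, 290 of 30051 genes passed with no filter, 201 of 16776 with only the compared libraries and 94 of 21114 with the replicate block, against 77 of 21114. Of the members, 2 passed with no filter, 2 with only the compared libraries and 1 with the block (SLC2A1), against 0. With a library left out, SLC2A1 ran from -1.04 to -0.68. For the difference of combination effects 1 passed without a filter (ALDOA) and from 0 to 9 with a library left out. Between the lines, some calls were lost or gained with a library left out, as listed above, and no direction of a called member reversed. The block changed no other count of members by over 1.5 times, although single calls moved (ENO1 lost and PFKL gained after DMSO, PKM at 1.14 and BSG at 0.44 gained after the combination), and the numbers were not shown to pair libraries. The 10 family shares that passed kept their sign but could not pass with the DMSO libraries alone (adjusted p = 0.0727 for each by exact permutation), at differences (percentage points, SK-LMS-1 minus SK-UT-1B) of 20.3 for HK2, 22.5 for PFKP, -15.0 for PFKM, -7.51 for PFKL, -22.5 for ALDOC, -3.94 for LDHB, 10.8 for SLC16A3, -16.2 for SLC2A3, 18.9 for PDK2 and -18.8 for PDK3. PDK1 was at -0.0351 (adjusted p = 0.933) and ENO2 at 1.58 (adjusted p = 0.0727) there, by the same exact test. With a library left out, SLC2A3 ran from -18.9 to -9.42, PDK1 from -6.17 to -2.13 and ENO2 from -0.0946 to 1.41. PDK1 passed without SK-UT-1B DMSO 4-1 or SK-LMS-1 DMSO 2-3 and ENO2 without 3-1. The cause was not tested in any of these. At this depth the lowest counts behind a called difference were those of SLC2A12 in SK-UT-1B (0, 28, 28, and 17, the 0 not in the shallowest library) and of LDHB (71 at the lowest).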
